A study of Mus musculus and Acomys cahirinus with 25 samples.

Results

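The cornified envelope genes of the epidermal differentiation complex were read in 25 bulk RNA-seq libraries of dorsal skin and wounds, 13 of laboratory mouse and 12 of spiny mouse. Members were taken by symbol alone. They are all symbols beginning with Sprr or Lce, together with Flg2, Hrnr, Rptn, Crnn, Ivl, Lor, Smcp, Crct1 and Cnfn, and 46 of the 24500 gene symbols in the counts met this rule. There were 16 SPRR genes (12 of the SPRR2 group and Sprr1a, Sprr1b, Sprr3 and Sprr4), 21 LCE genes (14 LCE1, 6 LCE3 and Lce6a), 4 S100-fused genes and 5 single genes. Flg itself was not analysed here. On GRCm38, 45 of the 46 lie on chromosome 3 between 92080271 and 93399442, from Lor to Rptn, and only Cnfn lies elsewhere, on chromosome 7. Sprr2g and Sprr2j-ps are annotated there as transcribed pseudogenes.

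The laboratory mouse libraries came from dorsal wounds at post-wound day 14 (PWD14) of mice wounded at 4 weeks of age, C57BL/6J as the standard strain. Epidermis gave 2 libraries of wound center and 2 of wound margin, all WT. Dermis gave 5 libraries of WT wound center, 2 of WT wound margin and 2 of KO wound center, where KO is the K14-Cre-Twist1 mouse and its control carries the Twist1+/+ alleles. K14-Cre acts in keratinocytes, so a dermis library does not check the deletion. Twist1 stood at 66.8 and 38.0 TMM CPM in the KO libraries against 51.6, 32.2 and 94.4 in the 3 WT libraries compared with them. The center was a central punch, given as 3 mm in the harvest protocol and as 5 mm where the epidermis libraries are described, and the margin was the rest of the wound. Layers were parted by hand. Spiny mouse (Acomys cahirinus) libraries, WT and from animals wounded at 2 months, held dorsal epidermis and dermis on PWD0, PWD14, PWD21 and PWD28 without a division into center and margin. PWD0 is the day of wounding, and shaved skin is named beside wounds as the tissue harvested. These days follow the labels, while a supplementary list of the same libraries gives 15, 20 and 30 for the later 3. Epidermis gave 1, 2, 2 and 1 libraries on these days and dermis 2, 1, 2 and 1. The labels do not tie libraries to animals, so p-values measure only the spread between these libraries.

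The cornified envelope is the insoluble protein shell that replaces the plasma membrane of a keratinocyte at the end of its differentiation. Transglutaminases crosslink its precursors: involucrin (Ivl) forms an early scaffold, loricrin (Lor) fills the shell, and small proline-rich proteins (SPRR) bridge the other proteins. Late cornified envelope (LCE) proteins join in the outermost living layers, and the S100-fused proteins (filaggrin-2, hornerin, repetin, cornulin) bundle keratin or are bound into the shell. LCE1 genes are known from intact epidermis, while LCE3, SPRR1 and SPRR2 genes are known to rise in injured or inflamed epidermis.

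Levels are TMM CPM, the counts of a gene scaled to a common library size (CPM) after TMM normalization, a scale that can be compared between libraries of a species but not between genes of different length. Laboratory mouse libraries held 19413261 to 86532134 reads on genes and spiny mouse libraries 5669760 to 34751956. Krt14, the basal keratin, stood above Col1a1, the fibroblast collagen, in 10 of 10 epidermis libraries, and below it in 15 of 15 dermis libraries. In laboratory mouse, epidermis was read paired-end and dermis single-end, so layer and read type cannot be told apart. Spiny mouse reads were aligned to the mouse genome, so levels are not compared between species. Smcp, which encodes a sperm mitochondrial protein, Sprr2a1 and Sprr2a2 were at 0 in all 12 spiny mouse libraries, and the part of the alignment in this was not tested. In mouse transcripts, Sprr2a1, Sprr2a2 and Sprr2a3 shared 94.3%, 94.7% and 47.5% of their 75-base stretches with other genes, LCE3 genes 6.15 to 45.6%, and LCE1 genes 0 to 13.5%. Reads from such stretches cannot be placed on 1 gene, so values of single SPRR2a and LCE3 genes are uncertain. In bulk samples, fewer cells of a type and less RNA per cell cannot be told apart.

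In the epidermis of laboratory mouse the 46 genes together took 3.06 and 3.29% of gene reads in the wound center libraries and 3.6 and 3.67% in the wound margin libraries. Their summed level was 44020.5 and 47109.9 TMM CPM in the center and 50896 and 49734 in the margin. The ratio of the mean sums was 0.906, while the families differed more. LCE1 genes summed to 4855 and 4552 TMM CPM in the center and 22083 and 20673 in the margin, a ratio of 0.22. SPRR2 genes summed to 1701 and 2305 against 594 and 205, a ratio of 5.02, and the other SPRR genes to 7489 and 11460.2 against 2607 and 2337, a ratio of 3.83. LCE3 genes summed to 659 and 807 against 172 and 186, a ratio of 4.1. For each of these 4 families the center and margin libraries did not overlap. With so few libraries per group, a lack of overlap can readily arise by chance. How often it occurred over all genes was not counted, so here and below it only describes the values. Per kilobase of the longest annotated transcript, Sprr1b (6415 TMM CPM per kb) and Sprr1a (5128) had the highest levels of the wound center, and Lce1a1 (4409), Lce1d (4391) and Lce1c (3740) those of the wound margin.

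**Figure D1:**
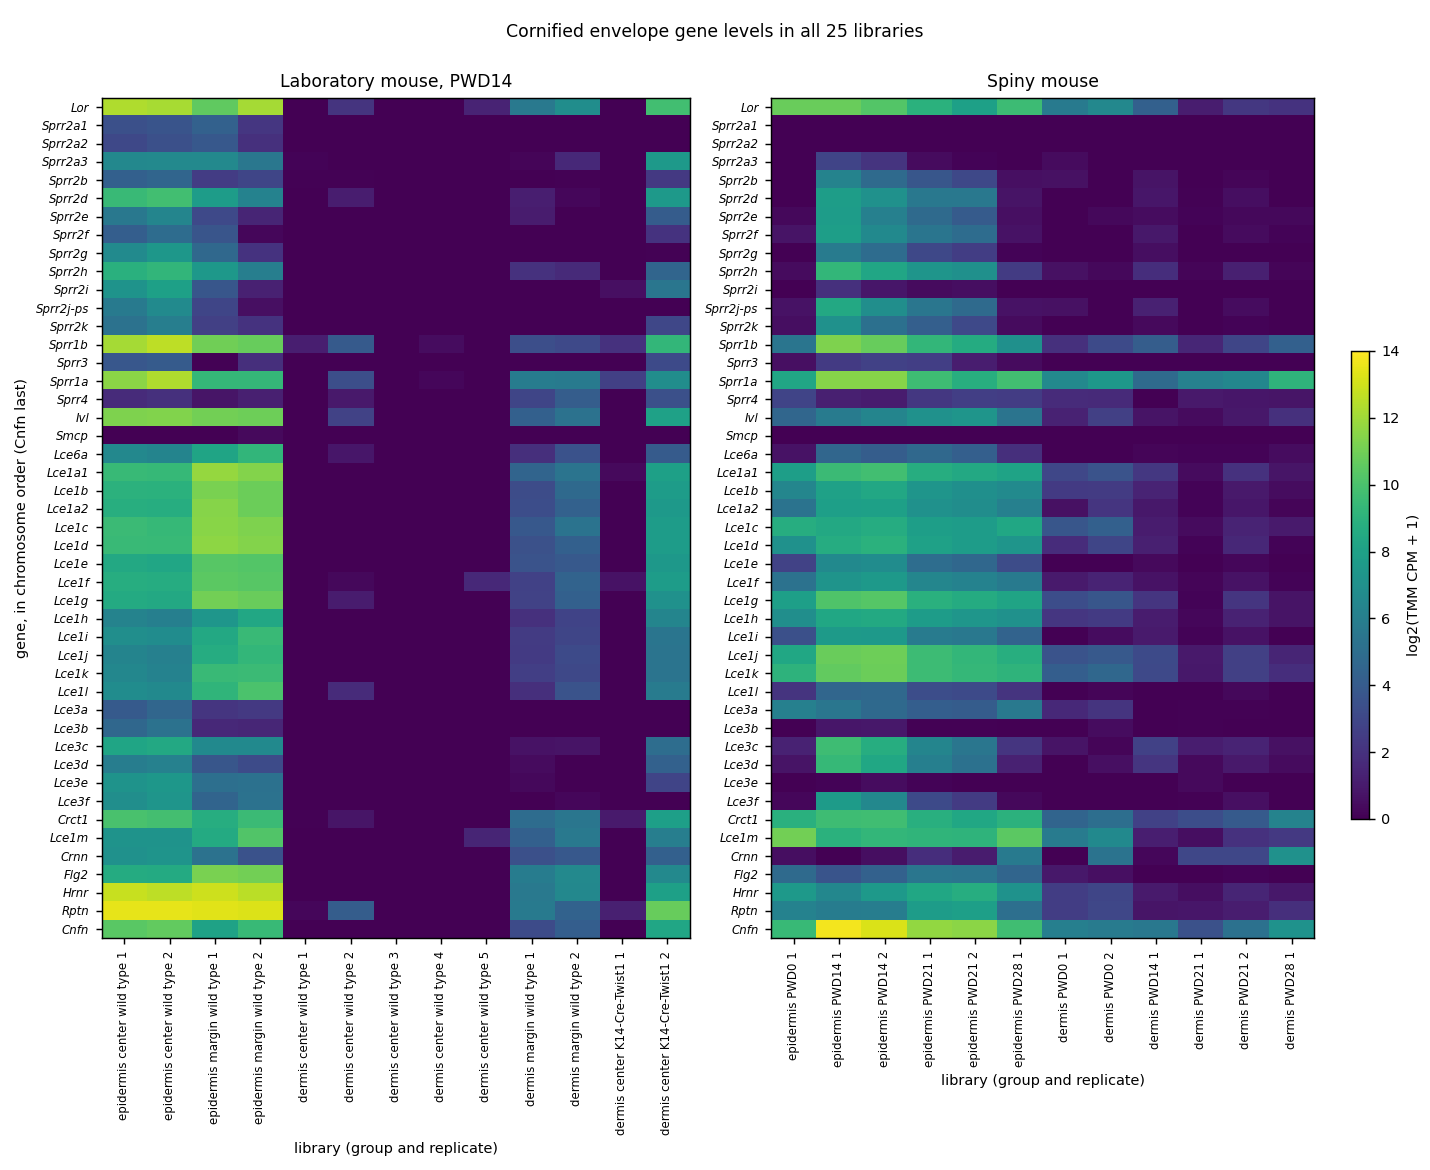
The plot shows the level of each member (log2 of TMM CPM + 1, as colour) in each of the 25 libraries, with genes in chromosome order and libraries grouped by species, layer, region and day. Epidermis libraries are mostly bright and most dermis libraries dark. In laboratory mouse epidermis the LCE1 block is brighter in the margin. LCE3 genes and most SPRR2 genes, except the SPRR2a genes, are brighter in the center there.

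The wound center, where new follicles form in the laboratory mouse, was compared with the wound margin gene by gene. In edgeR's quasi-likelihood F test, called at a Benjamini-Hochberg FDR under 0.05, 6 of the 45 members tested were higher in the center, against 0.882% of all 14165 genes tested, and 13 were lower, against 0.36% of all genes. The median log2 fold change was 0.56 over the members and -0.02 over all genes. All 13 lower members but Flg2 were LCE genes: 11 of the 14 LCE1 genes and Lce6a. The 6 higher members were Lce3b, Lce3c, Lce3d, Lce3e, Sprr1a and Sprr2k.

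Most LCE1 genes fell in the wound center. Lce1k stood at 87.7 and 71.6 TMM CPM in the center libraries and 706 and 737 in the margin libraries, a log2 fold change of -3.33 ± 0.23 (SE), FDR = 0.0367. Lce1a1 was at 687 and 657 TMM CPM in the center and 3517 and 2700.2 in the margin, with a log2 fold change of -2.37 ± 0.29 (SE), FDR = 0.0369. Lce1c was at 734 and 670.3 against 2894 and 2522 TMM CPM, with a log2 fold change of -2.10 ± 0.26 (SE), FDR = 0.0369. In each of these genes the lowest margin library was more than 3 times the highest center library. The other called LCE1 genes had log2 fold changes of -3.10 (Lce1l), -2.95 (Lce1j), -2.58 (Lce1a2), -2.56 (Lce1g), -2.24 (Lce1d), -2.21 (Lce1b), -2.13 (Lce1e) and -1.90 (Lce1f). Lce1h (-1.98, FDR = 0.071), Lce1i (-2.34, FDR = 0.0525) and Lce1m (-2.57, FDR = 0.0825) did not pass the threshold, and the median over all 14 was -2.36.

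Lce6a and Flg2 moved with the LCE1 genes. Lce6a, the single LCE6 gene, was at 91.7 and 78.2 TMM CPM in the center and 284 and 600.1 in the margin, a log2 fold change of -2.52 ± 0.37 (SE), FDR = 0.0491. Flg2 encodes filaggrin-2, a late protein of the granular layer. It was at 394 and 381 TMM CPM in the center and 2315 and 2107 in the margin, with a log2 fold change of -2.67 ± 0.25 (SE), FDR = 0.0367. Among the other S100-fused genes, hornerin (Hrnr) stood at 7126 and 6265 TMM CPM in the center against 7834 and 5925 in the margin, and its libraries overlapped. Repetin (Rptn) stood at 11574 and 11409.7 against 10662 and 9962 TMM CPM, and the fitted log2 fold change was 0.00 ± 0.35 (SE). Cornulin (Crnn), best known from oesophagus, was at 133 and 153 against 37.9 and 10.7 TMM CPM and did not pass (FDR = 0.11).

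The LCE3 genes lay on the other side. Lce3b was at 24.1 and 37.6 TMM CPM in the center and 2.08 and 1.85 in the margin, a log2 fold change of 3.85 ± 0.44 (SE), FDR = 0.0369. Lce3c was at 298 and 345 against 98.2 and 97.6 TMM CPM, with a log2 fold change of 1.56 ± 0.21 (SE), FDR = 0.0421. Lce3e was at 143 and 172 against 33.5 and 36.2 TMM CPM, with a log2 fold change of 2.02 ± 0.23 (SE), FDR = 0.0367. No center library of these 3 genes overlapped a margin library, which with so few libraries is weak evidence by itself. Lce3d also rose (log2 fold change 2.53), and Lce3a (2.21, FDR = 0.078) and Lce3f (2.06, FDR = 0.0553) did not pass. The median over the 6 genes was 2.13.

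Of the SPRR genes, 2 of 16 rose in the center, and none fell. Sprr1a, which encodes the cornifin-A crosslinker, was at 3032 and 5235 TMM CPM in the center and 628 and 641 in the margin, a log2 fold change of 2.56 ± 0.37 (SE), FDR = 0.0455. Sprr2k was at 37.8 and 62.2 against 5.37 and 3.10 TMM CPM, with a log2 fold change of 3.50 ± 0.46 (SE), FDR = 0.0397. The center libraries of both genes were several-fold above the margin libraries. Further SPRR2 genes had fitted values as large without passing, and their 2 margin libraries differed from each other. Sprr2d stood at 709 and 881 TMM CPM in the center and at 214 and 71.5 in the margin (log2 fold change 2.32 ± 0.54, SE, FDR = 0.105). Sprr2h stood at 464 and 593 against 177 and 63.6 TMM CPM (FDR = 0.121), and Sprr1b at 4442 and 6207 against 1979 and 1692 (FDR = 0.107). In these 3 genes the center and margin libraries did not overlap either, which with so few libraries does not replace the failed test. The fitted log2 fold changes of Sprr2i (4.86), Sprr2j-ps (4.72), Sprr2e (3.87) and Sprr2g (3.20) had FDRs of 0.078, 0.086, 0.0666 and 0.135. The 3 SPRR2a genes, which share much of their sequence, had values near 0 (-0.16, 0.02 and 0.24), and the median over the 12 SPRR2 genes was 2.22.

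The scaffold proteins did not pass the test. Lor was at 5097 and 4623 TMM CPM in the center and 1559.6 and 4381 in the margin (log2 fold change 0.57 ± 0.49, SE). Ivl was at 2523 and 2565 against 2052 and 1906 TMM CPM (0.21 ± 0.25, SE). Cornifelin (Cnfn), a small envelope protein, was at 1383 and 1614 against 272 and 702 (1.48 ± 0.44, SE). The 2 margin libraries of Lor and of Cnfn differed from each other by more than 2-fold, and for Cnfn both lay below the center libraries. Crct1 was at 994 and 897 against 424 and 739 TMM CPM.

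**Figure D2:**
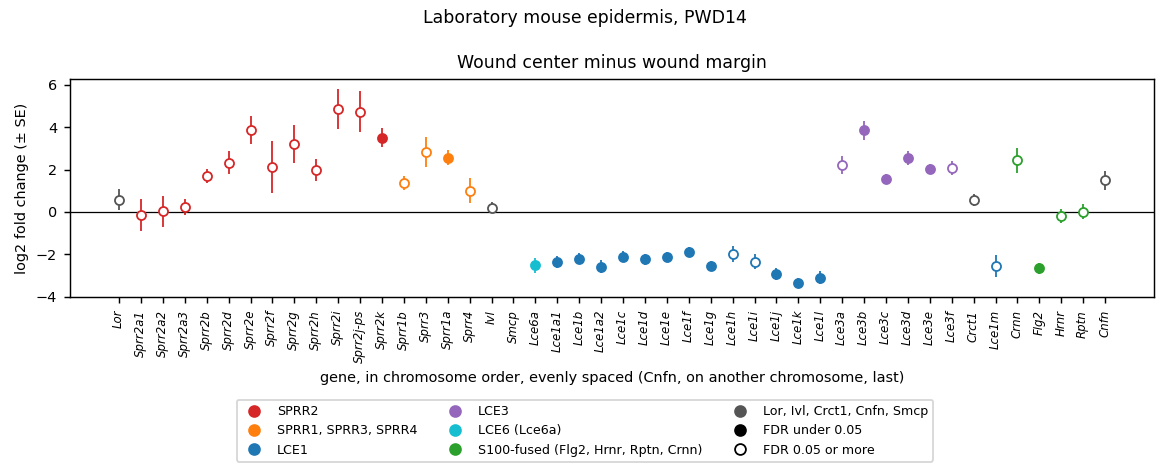
The plot gives the log2 fold change of wound center over wound margin in laboratory mouse epidermis on PWD14 for each member in chromosome order, coloured by family, with bars of 1 SE and filled points for an FDR under 0.05. LCE1 genes lie between -3.33 and -1.90 and LCE3 genes between 1.56 and 3.85, and 11 of the 12 SPRR2 points have an FDR of 0.05 or more.

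Other genes of cornification were largely not called. From a list of 15 scaffold and crosslinking genes tested, none was higher and 1 was lower in the center: Krt77, a keratin of suprabasal and eccrine duct cells (log2 fold change -4.23 ± 0.54 (SE), FDR = 0.0394). None of 12 filaggrin-processing genes, 14 genes of corneocyte lipid and junctions or 15 regulators of late differentiation passed, and their median log2 fold changes were 0.26, 0.18 and 0.20. At an unadjusted p under 0.05 edgeR had 3 higher and 1 lower, 3 and 0, and 3 and 1 of these lists, where 13.1% of all genes were higher and 10.4% lower. Among scaffold and crosslinking genes, the transglutaminases Tgm1 (log2 fold change 1.06) and Tgm3 (0.79) were higher in the center at this unadjusted threshold. Scel (-0.68), like Krt77, was lower. None of 7 basal, 6 suprabasal or 4 wound keratinocyte markers passed either, and 1, 1 and 2 of them were higher at an unadjusted p under 0.05. Suprabasal keratinocyte markers summed to 217246 and 201411 TMM CPM in the center and 203860.2 and 262712 in the margin. Wound keratinocyte markers (Krt6a, Krt6b, Krt16 and Krt17) summed to 17322 and 25031 against 7424 and 12531 TMM CPM. Fibroblast markers were higher in the center for 2 of 12 genes (8 at an unadjusted p under 0.05), and they summed to 9129.6 and 7485 against 3409.5 and 1068 TMM CPM. Their part in the member results was not tested.

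The number of members called changed with the library left out and with the test. Without wound margin replicate 1 the test called 40 members and 5508 genes in all, and without margin replicate 2 it called 41 and 7405, against 19 and 176 with all 4 libraries. Without center replicate 1 it called 11 members and 100 genes, and without center replicate 2 it called 6 and 70. The calls without either margin library held the same 19 members. A fit over all 13 laboratory mouse libraries and edgeR's version 3 quasi-likelihood estimate called none of the members (397 and 0 genes in all), and DESeq2 called 35, the 19 among them, of 1511 genes. At an unadjusted p under 0.05, 19 members were higher and 16 lower, against 13.1% and 10.4% of all genes.

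Promoters were read for the genes that moved apart, because SPRR2 and LCE genes lie side by side in the complex. RefSeq promoter sequence on GRCm38 was matched for 42 of the 46 members, and the 250 bases before the start were searched on both strands for the AP-1 motif TGANTCA and the octamer ATTTGCAT, both chosen with the values of these genes known. AP-1 is the Fos and Jun dimer known at many genes of keratinocyte differentiation, and the octamer is bound by POU factors. The 200 bases before the start are shown for 3 SPRR2 genes, Sprr1a and Lor, which hold a motif, and for Lce3c and Lce1c, which hold neither. Capitals mark the motifs.
Sprr2d, chr3:92338940-92339139, plus strand: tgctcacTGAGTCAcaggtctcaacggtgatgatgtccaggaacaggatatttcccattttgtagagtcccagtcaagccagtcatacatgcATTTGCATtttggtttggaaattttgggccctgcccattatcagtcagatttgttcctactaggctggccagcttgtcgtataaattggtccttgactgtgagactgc
Sprr2h, chr3:92385485-92385684, plus strand: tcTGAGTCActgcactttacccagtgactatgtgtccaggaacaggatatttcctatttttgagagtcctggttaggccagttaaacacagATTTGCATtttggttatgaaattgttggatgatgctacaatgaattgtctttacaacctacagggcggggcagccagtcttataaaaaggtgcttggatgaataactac
Sprr2k, chr3:92432382-92432581, plus strand: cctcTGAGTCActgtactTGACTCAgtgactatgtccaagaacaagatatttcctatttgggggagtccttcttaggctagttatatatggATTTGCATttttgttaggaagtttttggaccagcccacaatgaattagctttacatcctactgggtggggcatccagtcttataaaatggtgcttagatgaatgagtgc
Sprr1a, chr3:92485882-92486081, minus strand: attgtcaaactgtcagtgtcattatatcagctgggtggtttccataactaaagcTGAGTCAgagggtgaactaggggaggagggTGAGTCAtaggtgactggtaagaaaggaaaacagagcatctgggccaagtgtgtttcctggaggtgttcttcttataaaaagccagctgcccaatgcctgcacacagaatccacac
Lor, chr3:92083143-92083342, minus strand: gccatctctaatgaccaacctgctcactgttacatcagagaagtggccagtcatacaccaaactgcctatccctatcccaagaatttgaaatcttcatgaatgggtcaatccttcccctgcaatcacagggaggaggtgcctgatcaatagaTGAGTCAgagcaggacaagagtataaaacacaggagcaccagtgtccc
Lce3c, chr3:92944286-92944485, plus strand: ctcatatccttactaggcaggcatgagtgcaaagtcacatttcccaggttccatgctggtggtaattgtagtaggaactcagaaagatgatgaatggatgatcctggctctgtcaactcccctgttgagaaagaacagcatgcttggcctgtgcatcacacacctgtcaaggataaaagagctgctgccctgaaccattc
Lce1c, chr3:92679047-92679246, plus strand: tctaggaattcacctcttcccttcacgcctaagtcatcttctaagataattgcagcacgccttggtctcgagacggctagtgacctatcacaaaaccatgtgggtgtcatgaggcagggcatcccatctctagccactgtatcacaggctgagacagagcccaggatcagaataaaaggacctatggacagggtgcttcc

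The AP-1 letters stood in 14 of the 42 member promoters (33.3%) and in 6.75% of all 32851 promoters. They were found in 7 of 10 SPRR2 promoters (Sprr2b, Sprr2d, Sprr2e, Sprr2f, Sprr2h, Sprr2i and Sprr2k), in Sprr1a, Sprr1b, Lor, Ivl, Crnn, Flg2 and Rptn, and in 0 of 13 LCE1 and 0 of 6 LCE3 promoters. The octamer stood in the same 7 SPRR2 promoters and in no other member, against 1.6% of all promoters. In these SPRR2 genes an AP-1 match lay between 198 and 187 bases and the octamer between 112 and 101 bases before the start, and Sprr2k held a further AP-1 match. SPRR2 genes are close copies of each other, so their promoters are not independent of one another. The C/EBP-like letters TTNNGNAA stood in 36.8% of all promoters and in 6 of 6 LCE3, 9 of 10 SPRR2 and 2 of 13 LCE1 promoters. A TATAAA stood in 19 of 42 members (45.2%) and in 12.4% of all promoters, and CACCC in 40.5% of members and 52.0% of all. A match is a description of these letters and says nothing of whether a factor was bound.

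Spiny mouse epidermis was followed from PWD0 to PWD28, days that span the return of follicles across its wounds. Of the 41 members with at least 1 TMM CPM on some day, 30 had their highest mean level on PWD14, against 31.9% of all 13532 such genes. The 46 genes summed to 7998 TMM CPM in the PWD0 library, 33439 and 26938 on PWD14, 11256 and 9227 on PWD21 and 7274 on PWD28. Ivl, Lce6a, Flg2, Hrnr and Rptn were highest on PWD21, Lor, Sprr4, Lce1c, Lce3a and Lce1m on PWD0, and Crnn on PWD28. The PWD14 libraries also differed from the others in technical measures. Of their reads 26.76 and 24.38% lay on genes, against 33.3 to 38.33% in the other 4 epidermis libraries, and 59.51 and 59.65% were set aside for low alignment quality, against 50.03 to 53.03%. Their TMM factors were 0.6749 and 0.7134, against 0.9599 to 1.228, and the part of these differences in the PWD14 results was not tested. The tests set PWD14 against each other day, and the 3 comparisons share the PWD14 libraries. The single libraries of PWD0 and PWD28 were assumed to vary like the others.

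**Figure D3:**
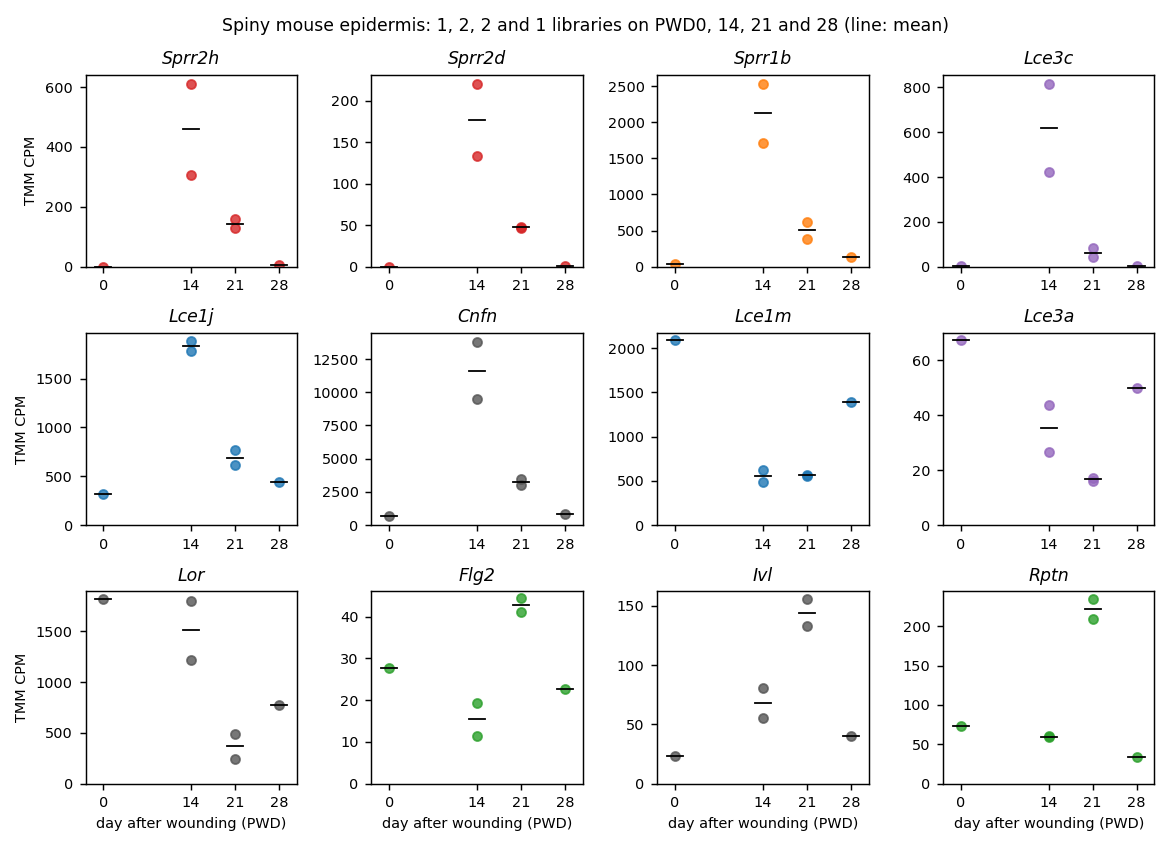
The plot shows the level (TMM CPM, axes from 0) of 12 members in each spiny mouse epidermis library by post-wound day, 1 point per library with a line at the mean. Sprr2h, Lce3c and Cnfn are highest on PWD14, Flg2, Ivl and Rptn on PWD21, and Lce1m, Lce3a and Lor on PWD0.

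Between PWD14 and PWD21, 31 of 40 members tested were higher on PWD14, against 23.4% of all 12889 genes, and 6 were lower, against 23.2%. The median log2 fold change was 1.5 over the members and -0.04 over all genes. All 9 SPRR2 genes tested, 13 of 14 LCE1 genes, and all 4 LCE3 genes tested were higher on PWD14. All 4 S100-fused genes were lower, together with Ivl and Sprr4.

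Of the 12 SPRR2 genes, 8 lay below 1 TMM CPM on PWD0 and above 20 in both PWD14 libraries, Sprr2a3 and Sprr2i stayed below 10 on every day, and Sprr2a1 and Sprr2a2 had no read. Sprr2h was at 0.332 TMM CPM on PWD0, 611 and 307 on PWD14, 158 and 130.2 on PWD21 and 4.35 on PWD28. Its log2 fold change from PWD21 to PWD14 was 1.73 ± 0.27 (SE), FDR = 0.000516. Sprr2d had no read on PWD0 and stood at 220.4 and 134 TMM CPM on PWD14, at least 712-fold higher against 3 counts in the PWD0 library, and at 46.9 and 47.6 on PWD21. Every SPRR2 gene tested was higher on PWD14 than on PWD0 (10 of 10) and on PWD28 (10 of 10). The SPRR2 genes summed to only 2.24 TMM CPM on PWD0 and 7.61 on PWD28. They were thus tested through the other days and could hardly come out lower on PWD14. Sprr1b was at 41.9 TMM CPM on PWD0, 2536 and 1719 on PWD14, 622 and 389 on PWD21 and 129.5 on PWD28. Sprr1a was at 313 TMM CPM on PWD0, 2792 and 2774 on PWD14, 796 and 438 on PWD21 and 859 on PWD28, with a log2 fold change of 2.23 ± 0.25 (SE), FDR = 8.41e-05 between PWD14 and PWD21. The PWD14 libraries of both genes stood above those of all other days. Sprr4 went the other way, at 6.21 TMM CPM on PWD0, 1.38 and 1.07 on PWD14, 3.82 and 5.01 on PWD21 and 4.51 on PWD28.

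LCE3 genes were split. Lce3c was at 1.49 TMM CPM on PWD0, 817 and 421 on PWD14, 81.8 and 43.6 on PWD21 and 3.43 on PWD28, with a log2 fold change of 3.35 ± 0.34 (SE), FDR = 5.77e-05 between PWD14 and PWD21. Lce3d was at 0.663 TMM CPM on PWD0, 674 and 318 on PWD14, 64.8 and 35.8 on PWD21 and 1.42 on PWD28. Lce3f was at 0.166 TMM CPM on PWD0, 206 and 91.6 on PWD14, 8.01 and 4.43 on PWD21 and 0.251 on PWD28, with a log2 fold change of 4.58 ± 0.39 (SE), FDR = 5.17e-05. These 3 genes were near 0 on PWD0 and PWD28 and high on PWD14. Lce3a instead was already at 67.4 TMM CPM on PWD0, fell to 43.8 and 26.7 on PWD14, and stood at 17.2 and 16.1 on PWD21 and 49.7 on PWD28. Its log2 fold change was 1.13 ± 0.25 (SE) against PWD21 and -0.94 ± 0.28 against PWD0.

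LCE1 genes were higher on PWD14 as well, with smaller medians. Lce1j was at 321 TMM CPM on PWD0, 1783 and 1889.5 on PWD14, 765 and 616 on PWD21 and 440.5 on PWD28. Between PWD14 and PWD21 the median log2 fold change was 1.17 over the 14 LCE1 genes, 2.73 over the 9 SPRR2 genes tested and 3.35 over the 4 LCE3 genes tested. Against PWD0, 12 LCE1 genes were higher, Lce1m was lower and Lce1c did not pass, with a median of 2. Lce1m was at 2090.2 TMM CPM on PWD0, 491 and 625.0 on PWD14, 571 and 555 on PWD21 and 1394 on PWD28, with a log2 fold change of -1.90 ± 0.20 (SE), FDR = 4.79e-05 between PWD14 and PWD0. Lce1c was at 424 TMM CPM on PWD0, 342 and 411 on PWD14, 229.5 and 214 on PWD21 and 318 on PWD28. Lce1m lies outside the LCE1 block, between Crct1 and the S100-fused genes, and shares none of its 75-base stretches with other genes.

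**Figure D4:**
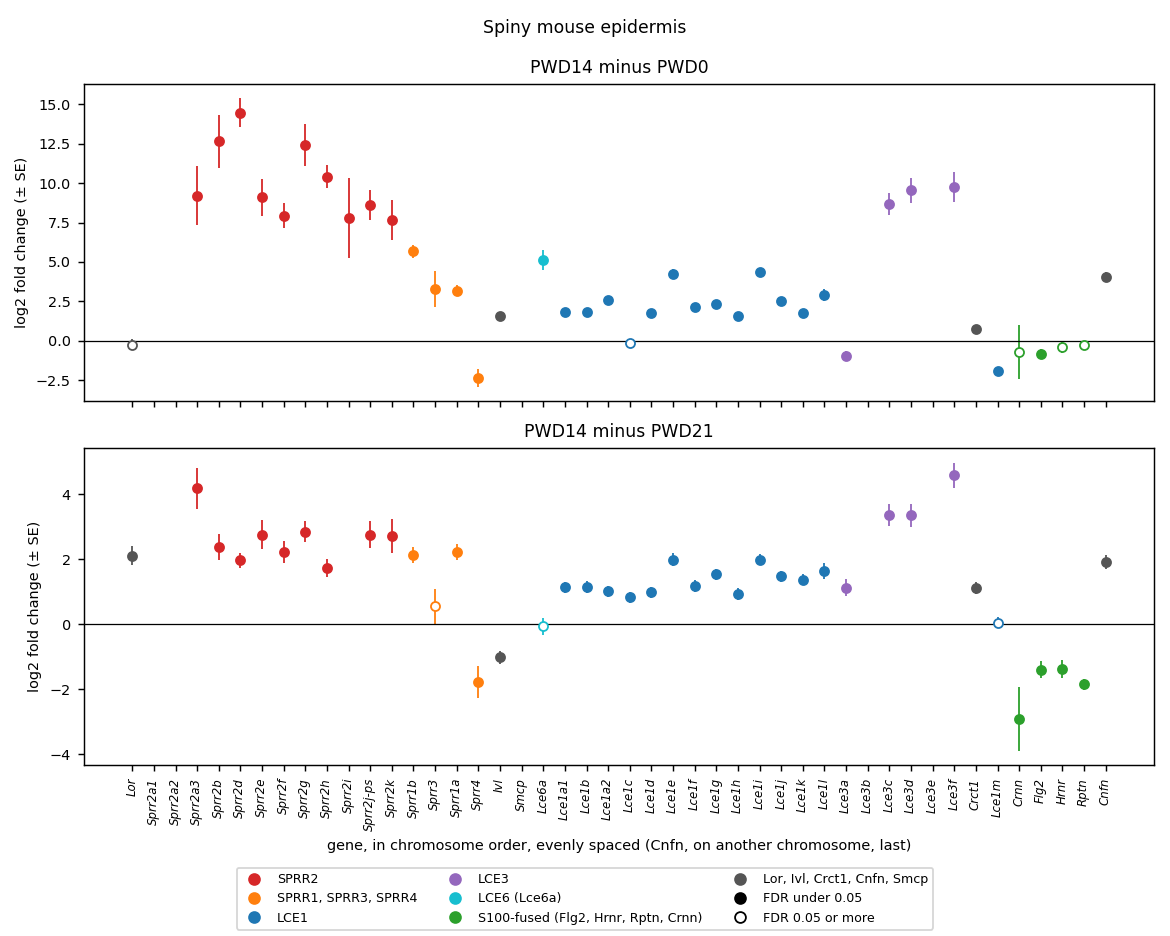
The plot gives, for each member in chromosome order and coloured by family, the log2 fold change of spiny mouse epidermis on PWD14 over PWD0 (top) and over PWD21 (bottom), with bars of 1 SE and filled points for an FDR under 0.05. SPRR2 genes and Lce3c, Lce3d and Lce3f stand high in both panels, Sprr4 lies below 0 in both, and genes without a point were not tested.

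Rptn, Flg2, Hrnr and Ivl had their highest levels on PWD21, and Crnn on PWD28. Rptn was at 73.2 TMM CPM on PWD0, 58.6 and 60.1 on PWD14, 209.6 and 234 on PWD21 and 33.4 on PWD28, a log2 fold change of -1.84 ± 0.17 (SE), FDR = 5.17e-05 from PWD21 to PWD14. Flg2 was at 27.8 TMM CPM on PWD0, 11.5 and 19.3 on PWD14, 44.4 and 41.0 on PWD21 and 22.6 on PWD28, with a log2 fold change of -1.39 ± 0.25 (SE), FDR = 0.00119. Hrnr was at 186 TMM CPM on PWD0, 89.5 and 186 on PWD14, 324 and 423 on PWD21 and 139.7 on PWD28 (-1.38 ± 0.28 (SE), FDR = 0.00241). In these 3 genes both PWD21 libraries stood above every other epidermis library. Ivl was at 23.4 TMM CPM on PWD0, 55.6 and 80.5 on PWD14, 133 and 156 on PWD21 and 40.1 on PWD28 (-1.02 ± 0.20 (SE), FDR = 0.00206), so that PWD14 was already above PWD0 and PWD28. Lce6a was at 0.580 TMM CPM on PWD0, 23.9 and 16.6 on PWD14, 25.2 and 18.0 on PWD21 and 2.67 on PWD28.

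The other envelope genes varied. Cnfn was at 702 TMM CPM on PWD0, 13810.1 and 9459.6 on PWD14, 3433 and 3049 on PWD21 and 835 on PWD28, with a log2 fold change of 1.91 ± 0.21 (SE), FDR = 8.41e-05 between PWD14 and PWD21. Lor was at 1814 TMM CPM on PWD0, 1803 and 1219.8 on PWD14, 487 and 246 on PWD21 and 772 on PWD28, with a log2 fold change of 2.10 ± 0.29 (SE), FDR = 0.000259. Lor on PWD14 lay at the PWD0 level or below it, while Cnfn lay more than 10-fold above it. Crct1 was at 479 TMM CPM on PWD0, 793 and 827 on PWD14, 462 and 323 on PWD21 and 505 on PWD28.

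Against PWD0, 32 of 41 members tested were higher on PWD14, where 22.7% of all 14336 genes were, and 4 were lower (Sprr4, Lce1m, Lce3a and Flg2), against 26.1%. Against PWD28, 33 of 41 were higher, against 20.6% of all genes, and 3 were lower (Crnn, Sprr4 and Lce1m), against 22.8%. Members nearly absent on PWD0 or PWD28, such as the SPRR2 genes, could hardly come out lower on PWD14. The median log2 fold change was 2.91 and 2.08 over the members and -0.15 and -0.16 over all genes.

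Other genes of cornification are set beside the shares of all genes called, 23.4% higher and 23.2% lower on PWD14 than on PWD21. Of 15 scaffold and crosslinking genes, 5 were higher and 5 lower in this comparison. Csta1, the cysteine protease inhibitor cystatin A that is bound into the envelope, had a log2 fold change of 2.36 and suprabasin (Sbsn) of 1.73, while sciellin (Scel) had -2.45 and Krt77 had -2.20. Of 14 genes of corneocyte lipid and junctions, 1 was higher and 9 were lower, with Lipk, a lipase of the granular layer, at -2.61 and Pnpla1, which makes acylceramides, at -1.83. Of 12 filaggrin-processing genes, 2 were higher and 5 lower, among them Kprp (-2.03) and the protease Casp14 (-1.45) lower and the inhibitor Spink5 (1.36) higher. Of 15 regulators, 4 were higher and 3 lower, with Cebpb at 1.73 and Zfp750 at -1.27. Against PWD0, where 22.7% of all genes were higher and 26.1% lower, 8 scaffold genes were higher and 6 lower, among them Csta1 (6.15), the hair and skin transglutaminase Tgm3 (5.70), Krt77 (-3.55) and Scel (-2.85). Of 4 wound keratinocyte markers, 3 were higher on PWD14 than on PWD21 and 4 than on PWD0, Krt6a by 8.85 on the log2 scale. They summed to 6540.5 TMM CPM on PWD0, 80642 and 47058 on PWD14, 16639 and 9879.6 on PWD21 and 4483 on PWD28. On PWD0 Krt6a stood at 16.0 and Krt16 at 609.6 TMM CPM, so Krt6b and Krt17 held most of that sum. Suprabasal markers summed to 23054 TMM CPM on PWD0, 45877 and 49078 on PWD14, 47988 and 46348 on PWD21 and 18748 on PWD28, and the part of either marker list in the member results was not tested.

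Members were mostly epidermal where the layers were tested, in the laboratory mouse wound and in spiny mouse on PWD21. In the laboratory mouse wound center all 45 members tested were higher in epidermis than in dermis, against 26.8% of all 15017 genes, and none was lower, against 25%. The 46 genes summed to only 0 to 57.0 TMM CPM in the 5 center dermis libraries. Members nearly absent from dermis were tested through epidermis and could hardly come out lower. The direction of this count, and in part of the layer counts that follow, was therefore fixed in advance. In the margin 40 of 43 were higher, against 20.9% of all genes, and 1 was lower, against 26.8%. The exception was Sprr4, at 0.762 and 1.35 TMM CPM in margin epidermis and 6.54 and 16.4 in margin dermis (log2 fold change -3.31 ± 0.77 (SE), FDR = 0.0053). In spiny mouse on PWD21, 38 of 39 were higher in epidermis, against 29.4% of all genes, and 1 was lower, against 33.5%. This exception was Crnn, at 2.62 and 1.09 TMM CPM in epidermis and 7 and 6.99 in dermis (log2 fold change -1.87 ± 0.43 (SE), FDR = 0.00675). Sprr1a had the least epidermal excess of the abundant spiny mouse SPRR genes, at 796 and 438 TMM CPM in epidermis and 70.3 and 86.8 in dermis (log2 fold change 2.95 ± 0.34, SE). Layers were not tested on PWD28, with 1 library each. There SPRR1, SPRR3 and SPRR4 genes summed to 993 TMM CPM in epidermis and 568 in dermis, and S100-fused genes to 250 and 136. LCE1 genes summed to 3812 and 11.9, and all 46 genes to 7274 and 941.

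Dermis libraries still held traces of these transcripts, and the traces differed by region. Summed over the 46 genes, WT wound center dermis held 1.66, 57.0, 0, 0.581 and 5.41 TMM CPM in its 5 libraries and WT margin dermis 481 and 817. Of 29 members tested between the first 2 center libraries and the margin, 0 were higher in the center, against 0.116% of all 14698 genes, and 8 were lower, against 0.735%. At an unadjusted p under 0.05, 27 were lower and 0 higher, against 10.7% and 5.11% of all genes. Members nearly absent from these center libraries were tested through the margin and could hardly come out higher. The direction of both counts was therefore partly fixed in advance. The 8 were Lor, Sprr1a, Lce1a1, Lce1c, Lce1m, Crct1, Flg2 and Hrnr. Flg2 had no read in the center libraries and 58.3 and 96.5 TMM CPM in the margin, at least 1270-fold higher against 3 counts over the 2 center libraries. Hrnr was at least 1160-fold and Lce1a1 at least 512-fold higher in the margin by the same measure. Lor was at 0 and 3.25 TMM CPM in these center libraries and 50.1 and 116 in the margin. Suprabasal keratinocyte markers summed to 192 and 264 TMM CPM in the same center libraries and 986 and 2177 in the margin, and 4 of these 6 markers were lower in the center. Hair follicle markers summed to 3.74 and 0 TMM CPM in the center and 712 and 683 in the margin, with 8 of 9 lower in the center. The part of keratinocyte and follicle RNA in the 8 calls was not tested. DESeq2 called 20 members of 738 genes, against 8 of 125 in the quasi-likelihood test. A minimum of 10 counts in every library left 1 member to test, which was not called, and leaving out margin replicate 2 left 1 member among 19 genes called.

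In K14-Cre-Twist1 wound center dermis, 8 members could be tested, and 0 were higher and 0 lower than in the 3 WT libraries of the same set, where 0.0494% and 0.00706% of all 14163 genes were called. All 8 were higher at an unadjusted p under 0.05 in edgeR's quasi-likelihood test, where 6.98% of all genes were higher and 4.54% lower. Members almost without WT reads were tested through the KO libraries and could hardly come out lower, so this direction was partly fixed in advance. The S100-fused and SPRR2 genes summed to 0 TMM CPM in each of the 3 WT libraries. DESeq2 called 4 members of 787 genes and edgeR's likelihood-ratio test 5 of 214. The 2 KO libraries stood far apart, with a member sum of 12 and 6963 TMM CPM against 0, 0.581 and 5.41 in WT. In KO replicates 1 and 2 in turn, Rptn was at 1.33 and 1731 TMM CPM, Lor at 0 and 869.6, Sprr1b at 2.95 and 606 and Ivl at 0 and 262. The suprabasal markers moved in the same way, at 336 and 21892 TMM CPM in KO and 3.25, 2.28 and 27.4 in WT, and their part was not tested. With KO replicate 1 left out the test called 36 members and 3353 genes in all, against 8 genes with both KO libraries.

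**Figure D5:**
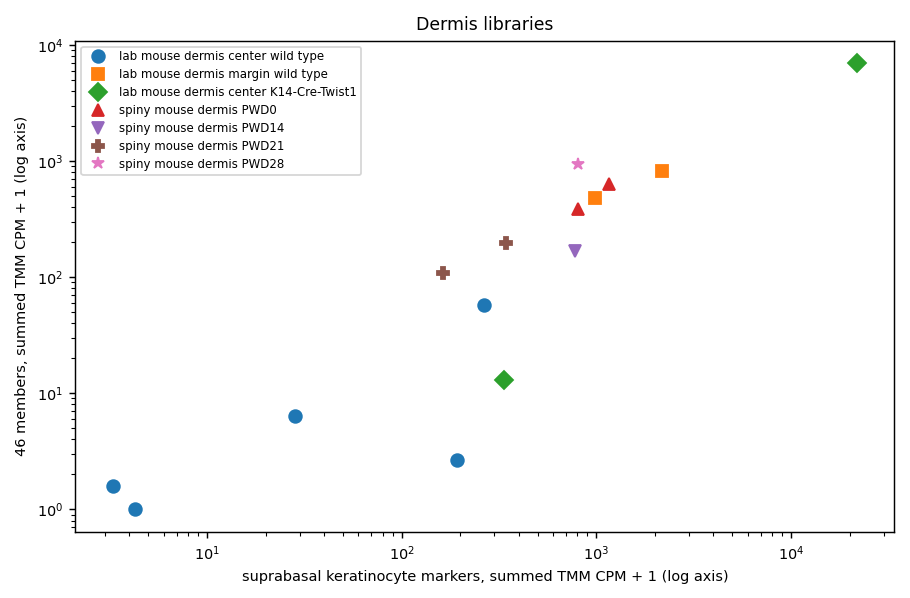
The plot sets the summed level of the 46 genes (y axis) against the summed level of 6 suprabasal keratinocyte markers (x axis), both as TMM CPM + 1 on log axes, 1 point for each of the 15 dermis libraries coloured by group. KO replicate 2 stands highest on both axes, and the 5 WT wound center libraries lie at or below 57.0 TMM CPM of member genes.

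Spiny mouse dermis held member sums of 381 and 628 TMM CPM on PWD0, 167 on PWD14, 108 and 194 on PWD21 and 941 on PWD28. Between PWD21 and PWD0, 0 of 23 members tested were higher, against 12% of all 14481 genes, and 10 were lower, against 14.2%. At an unadjusted p under 0.05, 17 were lower and 0 higher, against 21.3% and 19.5% of all genes, and DESeq2 called 15, all lower, of 4203 genes. LCE1 genes summed to 3.68 and 28.6 TMM CPM on PWD21 and 124 and 200 on PWD0. Members nearly absent on PWD21 were tested through PWD0 and could hardly come out higher, so this direction was partly fixed in advance. With at least 10 counts in every library 11 members were tested, and 9 were called, all lower, of 3811 genes. The 10 were Lor, Ivl, Hrnr, Rptn, Crct1, Lce3a, Lce1b, Lce1c, Lce1k and Lce1m. Lor was at 54.2 and 90.5 TMM CPM on PWD0 and 1.21 and 3.80 on PWD21 (log2 fold change -4.95 ± 0.57 (SE), FDR = 0.00082). Lce1m was at 55.8 and 98.2 against 0.445 and 3.03 TMM CPM (-5.56 ± 0.79 (SE), FDR = 0.00218). Lor, Lce3a, Lce1c and Lce1m, 4 of these 10, were also 4 of the 5 members with their highest mean on PWD0 in epidermis. Of all 13532 genes with at least 1 TMM CPM on some day in epidermis, 28.4% had their highest mean on PWD0. In dermis 17 of 27 such members had theirs on PWD0, against 25.1% of all 14545 such genes. Suprabasal markers in dermis summed to 802 and 1157 TMM CPM on PWD0 and 162 and 342 on PWD21, and wound keratinocyte markers to 15938 and 8152 on PWD0 and 464 and 490.2 on PWD21. In the PWD0 libraries Krt6a stood at only 90.2 and 43.8 and Krt16 at 191.6 and 171.3 TMM CPM. Krt6b and Krt17 thus held most of those wound marker sums. The part of either marker list in the 10 calls was not tested. Without PWD0 replicate 1 the test called 19 members of 3857 genes, and without PWD21 replicate 1 it called 4 of 1360, against 10 of 3792.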

How the data were processed

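Raw counts per gene symbol were deposited by the authors for each library, without normalization. They aligned reads to mm10 with STAR (2.6.1d in the methods, 2.4.1d in the submitters' processing notes) and counted them with HTSeq 0.6.0 on the RefSeq annotation. Spiny mouse reads, which were not strand-specific, were treated in the same way. The 5 summary lines of the counter were left out. Low alignment quality set aside 23.4 to 34.4% of laboratory mouse and 38.0 to 60.5% of spiny mouse reads, among them reads from near-identical copies.

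Groups came from the labels. Tests ran over all genes with edgeR 4.0.16 under R 4.3.3 and limma 3.58.1 (filterByExpr, TMM, prior count 0.125, quasi-likelihood F test, Benjamini-Hochberg FDR under 0.05). The SE divides the size of the log2 fold change by the root of F. Displayed TMM CPM use factors over all libraries of a species. Comparisons of K14-Cre-Twist1 used WT center dermis replicates 3 to 5, and center against margin used replicates 1 and 2. The labels do not divide the WT center dermis libraries, so this split followed the library names in a supplementary list. Alternatives were DESeq2 1.42.0, the likelihood-ratio test, edgeR's version 3 estimate (added after the values were seen), RLE, library size alone, filters, fits over more libraries and leaving out each library. The test was checked on simulated counts. A fold against a group with no read is a lower bound against 3 counts over its libraries combined, and such floors cover counting error only.

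Members with a mean of at least 10 TMM CPM in some group are named, and from other lists at most 4 genes per comparison. Members and lists were chosen with earlier results of these data known. Shared stretches were counted in GENCODE M21 transcripts, and promoters came from the RefSeq table of GRCm38.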

Additional observations from a re-analysis of the deposited data

Results flagged for a closer look

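WT wound center dermis replicate 2 of laboratory mouse stood apart from the other 4 libraries of its group by Dixon's gap, in the summed level of all 46 members (57.0 TMM CPM), SPRR genes (26.1), SPRR1, SPRR3 and SPRR4 (24.8), S100-fused genes (16.8), single genes (9.66), SPRR2 (1.22) and Lce6a (0.802). These sums share genes and reads, and chance alone also marks some groups. No chance rate is given, because the group joins replicates 1 and 2 of one comparison set with replicates 3 to 5 of another. The suprabasal markers summed to 192, 264, 3.25, 2.28 and 27.4 TMM CPM over replicates 1 to 5, the second value being that of replicate 2.

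The center-to-margin direction differed between layers in laboratory mouse. The ratio of summed TMM CPM in epidermis was 5.02 for SPRR2, 4.1 for LCE3, 3.83 for SPRR1, SPRR3 and SPRR4, 4.0 for all SPRR genes and 1.64 for the single genes, with both center libraries above both margin libraries in each. In dermis both center libraries lay below both margin libraries, with mean sums of 0.671 against 5.03 (SPRR2), 0 against 1.02 (LCE3), 13.1 against 75.0 (SPRR1, SPRR3 and SPRR4), 13.7 against 80.0 (all SPRR) and 4.85 against 161 (single genes). The dermis sums of SPRR2 and LCE3 genes were low in both regions and rested on few reads. Suprabasal keratinocyte markers, given above, were also lower in these center dermis libraries than in the margin, and their part was not tested. The difference between layers was not tested.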

How the results depend on the processing

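Of 4646 values of single genes under other settings, 4223 kept their direction and side of the threshold, 188 lost the call, 228 gained it and 7 changed sign. Of 135 counts of called members, 107 stayed within 1.5 times. In laboratory mouse epidermis, center against margin (19 called), edgeR's version 3 estimate called 0, DESeq2 35, the likelihood-ratio test 34 and a fit over all libraries of the species 0, and leaving out each library gave 6 to 41 (6 without center replicate 2, 11 without center replicate 1, 40 and 41 without margin replicate 1 and 2). In dermis (8 called) a minimum of 10 counts gave 0 and left 1 member to test, DESeq2 20, the likelihood-ratio test 19, the fit over all libraries 5, all 5 WT center libraries 21, and leaving out each library 1 to 16 (16 without center replicate 2, 5 without margin replicate 1, 1 without margin replicate 2). For K14-Cre-Twist1 (0 called) DESeq2 gave 4, the likelihood-ratio test 5, the fit over all libraries 31, all 5 WT libraries 10, and leaving out each library 0 to 36 (36 without KO replicate 1). In spiny mouse dermis (10 called) the fit over all libraries gave 18, and leaving out each library 4 to 19. The minimum of 10 counts in every library lowered margin epidermis against dermis from 41 to 27, PWD14 against PWD0 from 36 to 22, PWD14 against PWD28 from 36 to 19 and spiny mouse PWD21 layers from 39 to 13, since fewer members were tested. Under it no member was tested in center epidermis against dermis or in K14-Cre-Twist1, which give no value.

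Leaving out each library gave 44 to 45 calls for center epidermis against dermis, 38 to 43 for margin, 36 to 38 for PWD14 against PWD21, 34 to 36 against PWD0, 35 to 37 against PWD28 and 39 to 40 for the spiny mouse layers. Scaling by library size alone moved the median log2 fold change of all genes to -0.59 (PWD14 against PWD21), -0.87 (PWD0) and -0.99 (PWD28), lowered the ratio of summed member levels of PWD14 over PWD21 from 2.95 to 2.09, and put 2 members at their highest at PWD28, not 1. With it the sign changed for Lce1m (-0.50, PWD14 against PWD21) and, against PWD28, for Crct1 (-0.14), Ivl (-0.05) and Lce1c (-0.58). The sign also changed between settings in laboratory mouse epidermis for Sprr2a1 (1.39 without margin replicate 1, -1.04 without replicate 2) and Sprr2a2 (1.43 and -0.88), and in spiny mouse dermis for Crnn (-2.58 without PWD0 replicate 1, 10.28 without replicate 2). Where no construction is named, the cause was not tested. No paired analysis was possible because the labels number no replicates.

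Limits: groups hold 1 to 5 libraries, 3 counts is the least taken as detectable, such floors cover counting error only, and SEs hold the spread between libraries.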

Other observations

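Crnn, the cornulin gene, followed another course than the other S100-fused genes in spiny mouse. In epidermis it was at 0.414 TMM CPM on PWD0, 0 and 0.447 on PWD14, 2.62 and 1.09 on PWD21 and 54.6 on PWD28. In dermis it was at 0 and 39.9 TMM CPM on PWD0, 0.192 on PWD14, 7 and 6.99 on PWD21 and 133 on PWD28. The 9 hair follicle inner root sheath and shaft markers (such as Krt25, Krt71 and Tchh) summed in epidermis to 119.9 TMM CPM on PWD0, 61.7 and 97.5 on PWD14, 1337 and 638 on PWD21 and 22169 on PWD28. In dermis they summed to 17.5 and 6658 TMM CPM on PWD0, 105 on PWD14, 1916 and 2393 on PWD21 and 30418 on PWD28. The 3 spiny mouse libraries with the most Crnn, both PWD28 libraries and dermis PWD0 replicate 2, had the 3 highest sums of these markers. This was noticed in the data, and its cause was not tested.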
